A study of Mus musculus with 24 samples.

Results

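Oxyrase is a preparation of bacterial membranes whose enzymes use up the oxygen dissolved in a medium, with lactate among the substrates they can draw on. It was added to mouse CD8 T cells growing with lactate, and the transcripts of those cells were compared with those of cells given lactate alone. The comparison rested on 6 of the 24 libraries of the study, 3 for lactate with Oxyrase and 3 for lactate, and on every gene that passed a filter on low counts, which left 14749 of 55401 genes. All groups were CD8 T cells of C57BL/6J mice, pulled from spleens and lymph nodes with MACS microbeads and activated in culture for 3 days with 0.5 μg/mL anti-CD28, 100 U/mL IL-2 and 50 μmol/L β-mercaptoethanol. Both groups compared here received Na Lactate at 20 mM during the last day, from day 2 on, and 1 of them received Oxyrase as well; the labels give no dose of Oxyrase and no oxygen level. The study also held cells given NaCl or Na Pyruvate at 20 mM, and accessible chromatin was measured by ATAC-seq in 12 further libraries of the same 4 treatments. Any loss of oxygen, any use of lactate by the enzymes and the bacterial preparation itself came together in the Oxyrase group and cannot be told apart. Whether replicates were separate mice or separate cultures is not stated in the labels; the p-values then reflect only how far these libraries scatter, which may be technical.

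CD8 T cells are the lymphocytes that kill infected or malignant cells, and on activation they grow, divide and turn to glycolysis. Cells sense oxygen through prolyl hydroxylases of the EGLN family, which mark the alpha subunit of hypoxia-inducible factor (HIF) for destruction by the VHL ligase as long as oxygen is at hand. Without oxygen the subunit stays, pairs with ARNT and turns on genes for glycolysis, blood vessel growth and collagen modification. Oxygen is also a substrate of the respiratory chain, of several steps of cholesterol synthesis, of fatty acid desaturases and of the JmjC histone demethylases and TET enzymes.

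Oxyrase changed the transcriptome on a broad front. At an adjusted p under 0.05 in edgeR's quasi-likelihood test, 3843 genes rose (26.1% of those tested) and 3480 fell (23.6%), so about as many went up as down. Changes of 2-fold or more were fewer and mostly upward: 879 genes rose that far (5.96%) and 327 fell that far (2.22%). For every gene list below the background is thus 26.1% up and 23.6% down. The median log2 fold change over all tested genes was 0.00, and the range from the 5th to the 95th percentile was -0.78 to 1.19. In 8251 genes the 3 Oxyrase libraries did not overlap the 3 lactate libraries. The replicates were tight, with a median coefficient of variation of 3.89% in lactate and 4.13% with Oxyrase. The deposited RNA table carries signs of a correction for replicate number, and the RNA p-values may therefore be too small. The RNA libraries held 26036288 to 39643683 counts, and the upper limit for a gene with no count, set at 3 counts, was 0.0757 to 0.115 CPM (counts scaled to a common library size). In principal components the leading axis, with 45.2% of the variance, set the Oxyrase libraries apart from the other 9. Levels below are CPM per library in the order replicate 1, 2 and 3, and changes are log2 fold changes of Oxyrase over lactate with their SE.

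**Figure D1:**
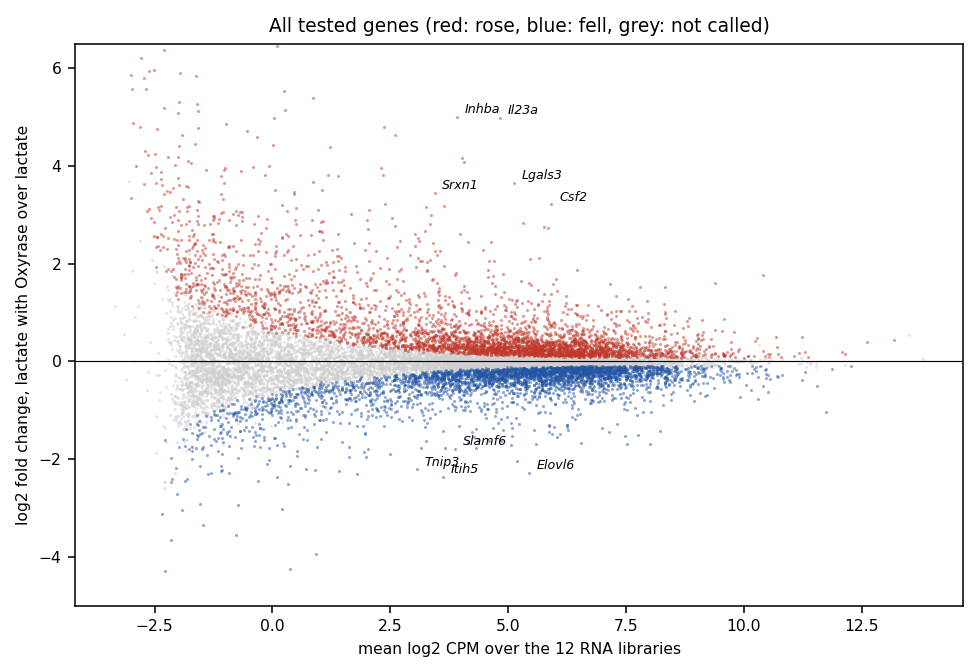
Log2 fold change of lactate with Oxyrase over lactate against the mean log2 CPM of 12 RNA libraries, 1 point per tested gene; red points rose, blue points fell and grey points were not called. Of 14749 genes 32 lie outside the vertical range. The labelled Inhba and Il23a stand near a log2 fold change of 5.

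The 10 largest rises, taken where the mean log2 CPM reached 3 and the groups stood apart, were led by secreted signals. Inhba (ENSMUSG00000041324, chr13:16004256-16031609 in GRCm38.p6) encodes the subunit that makes activin A, a member of the TGF-beta family. It stood at 2.94, 4.31 and 3.83 CPM in lactate and at 132, 113 and 116 CPM with Oxyrase, a 32.1-fold rise (5.01 ± 0.15, adjusted p = 1.22e-13). Il23a (ENSMUSG00000025383, chr10:128296140-128298084) encodes the p19 subunit of interleukin 23; its level was 10.8, 10.9 and 9.36 CPM in lactate and 387, 285 and 308 CPM with Oxyrase (4.98 ± 0.12, adjusted p = 1.37e-14). In both genes every Oxyrase library lay above every lactate library, which the rule for naming them required. The chemokine Ccl9 rose 18.0-fold, from 4.52, 5.75 and 5.07 to 94.2, 82.5 and 101 CPM. Il3 and Csf2, neighbouring cytokine genes on chromosome 11 that support blood cell growth, rose 16.9-fold and 9.28-fold. Lgals3, which encodes the sugar-binding protein galectin-3, went from 12.6, 12.3 and 12.9 to 147, 155 and 173 CPM (3.65 ± 0.08). The others were Srxn1 (3.45 ± 0.13), Ccl1 (3.18 ± 0.19), Nupr1 (3.17 ± 0.15) and the cell-surface protease Adam8 (3.00 ± 0.11).

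The 10 genes that fell most by the same rule held 4 enzymes of lipid synthesis. Elovl6 (ENSMUSG00000041220, chr3:129532386-129638495), which lengthens fatty acids, stood at 84.0, 75.5 and 77.1 CPM in lactate and at 15.2, 18.9 and 14.5 CPM with Oxyrase, 4.87-fold lower (-2.28 ± 0.08, adjusted p = 5.39e-13). The desaturase Fads2 (-2.03 ± 0.11) and the sterol enzymes Mvd (-1.77 ± 0.08) and Dhcr7 (-1.70 ± 0.07) fell with it. Itih5, a matrix-associated inhibitor family member, fell from 21.0, 15.3 and 19.2 to 2.48, 3.92 and 4.28 CPM (-2.36 ± 0.14). Slamf6, a surface receptor of stem-like and naive T cells, fell from 22.6, 19.7 and 19.3 to 5.30, 6.16 and 6.22 CPM (-1.79 ± 0.09). The remaining members were Tnip3, an NF-kB feedback gene (-2.21 ± 0.17), Sntb1 (-1.77 ± 0.14), Tead1 (-1.77 ± 0.13) and the interferon-induced GTPase Iigp1 (-1.69 ± 0.09).

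**Figure D2:**
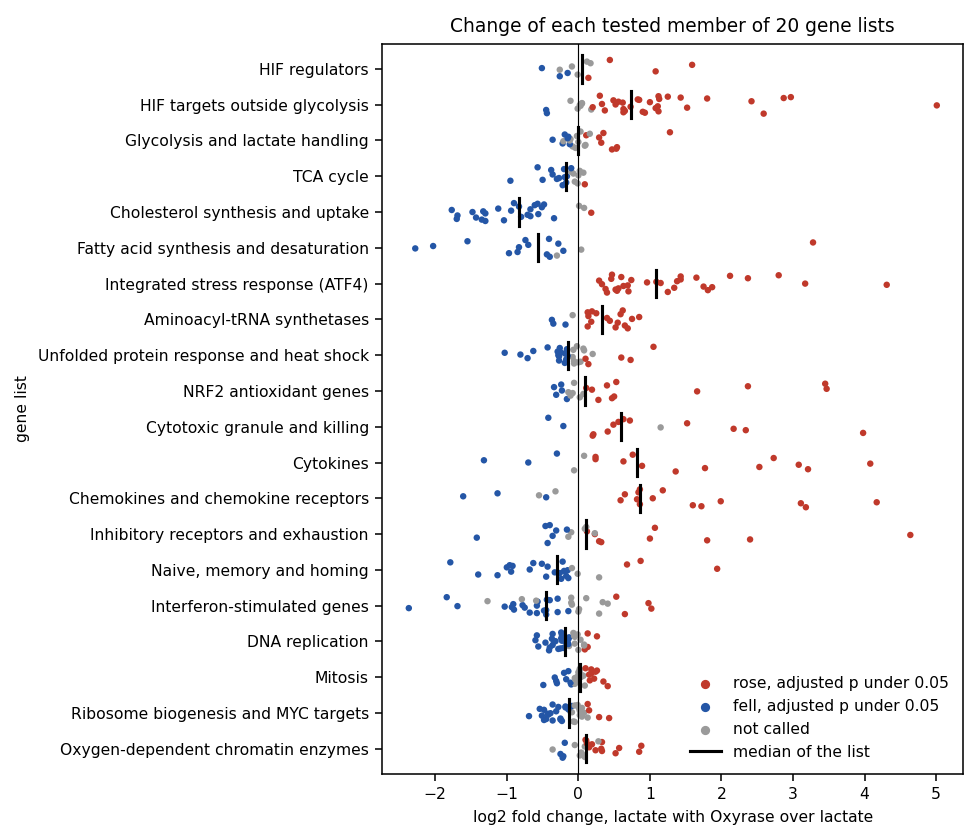
Log2 fold change of lactate with Oxyrase over lactate (horizontal axis) for the tested members of 20 gene lists (rows), with 1 point per gene and a black bar at the median; 2 members with no count in a whole group are not drawn. All 31 drawn points of the ATF4 list lie right of 0, and all but 3 of the cholesterol list lie left of it.

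Oxygen sensing was examined through the regulators of HIF and then its targets. Of 12 tested regulators 4 rose and 3 fell (median 0.06), shares near the 26.1% and 23.6% of all tested genes. Hif1a itself, the oxygen-regulated subunit, fell from 549, 564 and 517 to 401, 381 and 361 CPM (-0.51 ± 0.04, adjusted p = 2.14e-08). Every Oxyrase library was below every lactate library, at 1.43-fold less on average. Egln3, a hydroxylase gene that HIF itself turns on, rose from 68.4, 59.2 and 61.1 to 146, 119 and 134 CPM (1.08 ± 0.10). Egln1, the main oxygen sensor, was not called, at 111, 103 and 103 CPM against 99.6, 109 and 106 CPM (-0.01 ± 0.05, adjusted p = 0.915). Hif3a, which encodes a further alpha subunit, rose 3.02-fold from a low level of 1.17 to 1.36 CPM. Vhl rose 1.35-fold, and Cited2, whose product competes with HIF for a coactivator, fell (-0.26 ± 0.07).

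HIF targets outside glycolysis moved mainly upward: 32 of 41 tested rose and 2, Car12 and Ak4, fell (median 0.73), against 26.1% and 23.6% of all tested genes, and 15 rose 2-fold or more. Vegfa, the vessel growth factor, rose from 53.1, 49.4 and 45.9 to 124, 98.1 and 100 CPM (1.12 ± 0.09, adjusted p = 9.22e-09). P4ha2, a collagen prolyl hydroxylase, rose 5.35-fold from 6.27, 6.25 and 5.86 to 38.6, 28.3 and 31.5 CPM. Both genes were higher in all 3 Oxyrase libraries than in any lactate library. The peptide hormone Adm rose 6.01-fold (2.59 ± 0.24), while the mitophagy receptor Bnip3 (0.65 ± 0.08) and the mTORC1 inhibitor Ddit4 (0.63 ± 0.05) rose by less. Stc1 and Tmem45a rose 7.31-fold and 7.83-fold, both from under 0.5 CPM. Stc1 and Cox4i2 passed the filter on low counts only through the Oxyrase libraries, so their direction in the count of 32 was fixed in advance. Cox4i2, the oxygen-responsive isoform of a cytochrome oxidase subunit, had 0 counts in the lactate libraries and 69 in the Oxyrase libraries, at least 27.0-fold higher by a floor of 3 counts over the group, but DESeq2 did not call it. Car9, often used as a hypoxia marker, was near the floor in both groups, at 0.210, 0.382 and 0.254 CPM against 0.185, 0.344 and 0.425 CPM (0.18 ± 0.44). Higd1a, at 63.9 to 70.6 CPM in lactate and 64.3 to 74.1 CPM with Oxyrase, was not called either; these 2 genes were chosen after their values were seen.

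The promoters of Inhba and P4ha2, the members of this list with the largest rises among those above 5 CPM with Oxyrase in every library, are shown with the core letters of the hypoxia response element in capitals. They come from the RefSeq promoter table in GRCm38.p6, read 5′ to 3′ along the gene's strand, the plus strand for both: chr13:16011601-16011900 for Inhba and chr11:54100674-54100973 for P4ha2. They were picked among promoters that hold the core. The Inhba window lies inside the gene span given above, not at its edge. The letters searched were ACGTG or GCGTG on either strand; the GCGTG form also lies inside the AHR core TNGCGTG.
Inhba: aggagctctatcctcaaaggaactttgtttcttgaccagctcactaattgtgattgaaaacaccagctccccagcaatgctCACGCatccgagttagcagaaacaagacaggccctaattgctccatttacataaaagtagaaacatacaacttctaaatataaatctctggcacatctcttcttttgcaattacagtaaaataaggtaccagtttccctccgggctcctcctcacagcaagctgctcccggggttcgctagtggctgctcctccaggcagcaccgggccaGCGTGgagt
P4ha2: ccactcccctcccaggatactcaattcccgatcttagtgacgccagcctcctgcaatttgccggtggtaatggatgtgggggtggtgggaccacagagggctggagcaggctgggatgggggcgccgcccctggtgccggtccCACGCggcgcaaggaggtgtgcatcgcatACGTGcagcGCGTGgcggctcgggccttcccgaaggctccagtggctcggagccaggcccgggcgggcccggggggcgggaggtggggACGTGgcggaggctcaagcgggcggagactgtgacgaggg
The window of Inhba held 2 matches and that of P4ha2 held 4. The core is short and common: 61.2% of 13116 promoters of tested genes held at least 1, against 31 of 41 promoters (75.6%) of 30 genes of the HIF target list. Among promoters of all genes that rose 2-fold or more the share was lower, at 53.6%, and among those that fell as far 47.7%. At the start of neither gene did accessibility change beyond the ATAC threshold (0.12 ± 0.09 for Inhba and 0.21 ± 0.12 for P4ha2). The peak read was the nearest to any annotated start of the gene, so that of Inhba may lie outside the printed window.

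Glycolysis genes, textbook HIF targets themselves, did not move as a block: of 25 tested 8 rose and 6 fell (median 0.00), shares near those of all tested genes. The glucose transporter Slc2a3 rose most, from 158, 139 and 135 to 320, 377 and 355 CPM (1.28 ± 0.09), and was the single member past 2-fold. Slc2a1, the other main glucose transporter, rose 1.27-fold, Aldoa 1.39-fold and Pgk1, chosen after its values were seen, 1.22-fold. Ldha, which turns pyruvate into lactate, fell from 2710, 2560 and 2660 to 2330, 2230 and 2260 CPM (-0.22 ± 0.04, adjusted p = 1.57e-04), and its Oxyrase libraries were all below the lactate libraries. Slc16a3, the lactate exporter, stood at 136, 121 and 130 CPM against 146, 138 and 148 CPM and was not called (0.16 ± 0.08, adjusted p = 0.115). Pfkfb3, a driver of glycolytic flux, was not called (0.00 ± 0.05).

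Genes that steer pyruvate into the mitochondrion were mixed, with 7 of 14 up and 3 down (median 0.11). Pdk1, the kinase that shuts pyruvate dehydrogenase and is known as a HIF target, fell from 153, 139 and 145 to 105, 125 and 116 CPM (-0.34 ± 0.05). Pdp2, the phosphatase with the opposite task, fell 1.91-fold (-0.93 ± 0.05), and Pdha1, a subunit of the enzyme itself, rose 1.19-fold. Beyond that gate, in the tricarboxylic acid cycle list, 13 of 21 members fell and 1 rose (median -0.17), against 23.6% and 26.1% of all tested genes; the single rise was lost without lactate 1, lactate 2, lactate 3 or Oxyrase 3. Idh1 went from 6.48, 7.20 and 6.55 to 3.78, 3.30 and 3.40 CPM (-0.95 ± 0.11), and Suclg2 (-0.57 ± 0.04) and Idh2 (-0.50 ± 0.05) fell too. In the pentose phosphate pathway 4 of 7 fell, among them Pgd (-0.55 ± 0.04) and Tkt (-0.28 ± 0.03), and Rpe rose (0.31 ± 0.05). Against the same shares, 18 of 48 nuclear genes of the respiratory chain fell and 5 rose (2 rose without Oxyrase 3), with changes such as -0.36 ± 0.05 for Cox7b and 0.39 ± 0.06 for Uqcrq. Mitochondrial ribosomal proteins had 21 of 49 down and 3 up (median -0.11; 5 up without lactate 2). Of the 13 messages encoded by the mitochondrial genome 11 were not called, while mt-Co3 rose (1.03 ± 0.33) and mt-Nd2 fell (-0.29 ± 0.08), both named after their values were seen. The rise was lost without Oxyrase 1 and the fall without lactate 2.

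**Figure D3:**
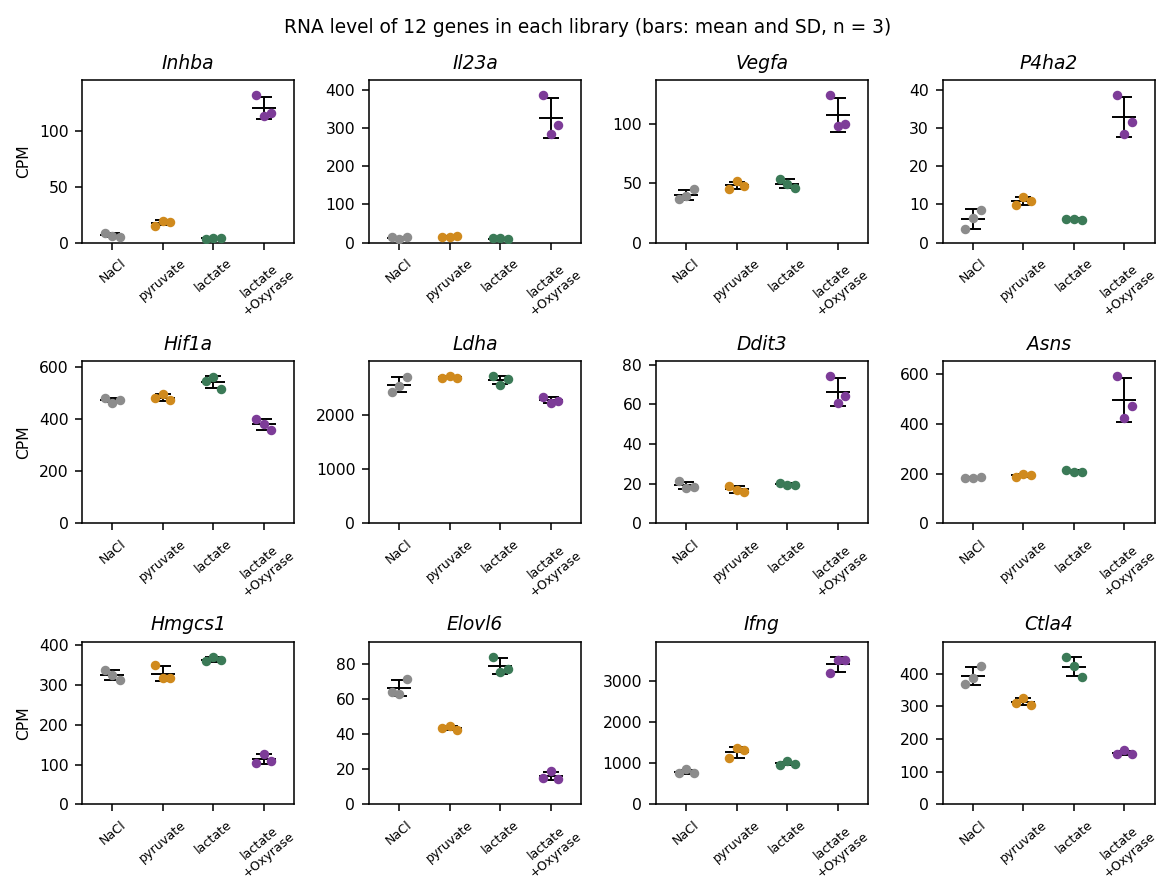
RNA level in CPM (vertical axes, from 0) of 12 genes in each library of the 4 treatments, with the mean and SD of 3 libraries. The Oxyrase libraries stand above all other groups for Inhba, Il23a, Vegfa, P4ha2, Ddit3, Asns and Ifng, and below them for Hif1a, Ldha, Hmgcs1, Elovl6 and Ctla4.

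Genes of cholesterol synthesis and uptake fell together. Of 27 tested members 24 fell, 11 of them 2-fold or more, against 23.6% and 2.22% of all tested genes, and the median was -0.83. Hmgcs1 (ENSMUSG00000093930), which makes the HMG-CoA that opens the pathway, went from 360, 371 and 362 to 104, 128 and 108 CPM, 3.23-fold lower (-1.69 ± 0.06, adjusted p = 9.83e-13). Fdft1, the squalene synthase, fell from 81.6, 81.3 and 81.9 to 31.4, 28.5 and 30.7 CPM (-1.43 ± 0.05). In neither gene did the groups come near each other. Sqle, whose enzyme is the first of the pathway to need oxygen, fell by less, from 131, 128 and 133 to 80.9, 91.9 and 84.1 CPM (-0.61 ± 0.04). Srebf2, the factor that drives the pathway, fell 0.48 ± 0.03 on the log2 scale, and Insig1 fell 1.30 ± 0.05. Among the exceptions Scap was not called, and Insig2 rose by 0.18 ± 0.06, a call lost without lactate 1, lactate 3 or Oxyrase 3. Srebf2, Scap and both Insig genes were named after their values were seen.

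The promoter of Hmgcs1 is given because its sterol regulatory element was the single match among 25 promoters of 19 genes of this list. The letters were TCACNCCAC on either strand, not nested in another motif searched, and 1.11% of all 13116 promoters held them. The window is chr13:119690101-119690400 of GRCm38.p6 (RefSeq), plus strand, with the match in capitals.
Hmgcs1: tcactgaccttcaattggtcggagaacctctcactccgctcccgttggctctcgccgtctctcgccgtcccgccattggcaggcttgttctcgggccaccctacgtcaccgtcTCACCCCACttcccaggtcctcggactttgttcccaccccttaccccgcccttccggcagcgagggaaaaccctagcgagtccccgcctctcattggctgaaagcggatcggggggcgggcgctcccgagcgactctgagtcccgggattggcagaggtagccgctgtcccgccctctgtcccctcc
Accessibility at the start of Hmgcs1 was not called (-0.06 ± 0.10), and that of Dhcr7 closed (-0.38 ± 0.09).

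Fatty acid synthesis fell as well, with 13 of 16 members down and 1 up (median -0.57). Scd1, the desaturase that makes oleate, fell from 120, 99.9 and 92.7 to 36.4, 40.9 and 29.8 CPM (-1.55 ± 0.12), and the more abundant Scd2 fell from 1330, 1120 and 1120 to 680, 788 and 681 CPM (-0.74 ± 0.07). Acss2, which makes acetyl-CoA from acetate, and Acsl3, which activates long fatty acids, fell by 0.85 ± 0.11 and 0.97 ± 0.08. Me1 was the exception and rose 9.71-fold from at most 0.178 CPM (3.28 ± 0.58). It passed the filter on low counts through groups where it was higher, so its direction was partly fixed in advance. A list that joins fatty acid uptake, storage and oxidation had 9 of 19 up and 4 down, against 26.1% and 23.6% of all tested genes. Cd36, the fatty acid transporter, rose from 4.69, 4.17 and 5.05 to 30.9, 27.9 and 30.2 CPM, 6.39-fold with no overlap (2.67 ± 0.10, adjusted p = 8.62e-13). Dgat2, which makes triglyceride, rose 1.87-fold, and Pparg rose 6.10-fold at around 1 CPM. Cpt1a, which carries fatty acids into mitochondria, fell from 50.3, 49.9 and 50.9 to 31.1, 28.4 and 28.8 CPM (-0.77 ± 0.07), and Fabp5 fell (-0.67 ± 0.04). Hilpda, a lipid droplet gene known as a HIF target and named after its values were seen, stood at 15.8, 14.7 and 15.2 CPM against 14.1, 16.0 and 18.7 CPM and was not called.

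ATF4 is the factor that cells make more of when amino acids run short, proteins misfold or mitochondria fail, and its targets bring in and make amino acids. All 31 tested members of its list rose, 16 of them 2-fold or more, against 26.1% and 5.96% of all tested genes (median 1.09). Atf4 itself went from 494, 468 and 475 to 762, 656 and 672 CPM (0.54 ± 0.05, adjusted p = 6.91e-08). Ddit3, the factor CHOP, rose 3.36-fold from 20.2, 19.6 and 19.6 to 74.3, 60.8 and 64.2 CPM (1.75 ± 0.08). Asns, the asparagine synthetase, rose from 213, 205 and 208 to 592, 422 and 473 CPM (1.25 ± 0.08). Each of these had Oxyrase libraries above all lactate libraries, and Oxyrase 1 was the highest of the Oxyrase libraries in all 3 genes. The cystine transporter subunit Slc7a11 rose from 5.36, 6.00 and 6.06 to 41.8, 20.8 and 27.9 CPM (2.37 ± 0.18), again highest in Oxyrase 1. Trib3, a pseudokinase that feeds back on the pathway, rose 4.36-fold, and Cth, which makes cysteine, rose 3.64-fold. Gdf15, a stress hormone, had 2 counts in the lactate libraries and 40 with Oxyrase, a ratio of 23.5. Its 95% counting interval was 6.10 to 201. Gdf15 passed the filter on low counts only through the Oxyrase libraries, so its direction in the count of 31 was fixed in advance.

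Nupr1 and Vldlr rose furthest in this list among members above 5 CPM with Oxyrase, 8.98-fold and 6.98-fold, and their promoters are shown since both hold the ATF4 core. The core was searched as TGATGNAA on either strand, not nested in another motif searched, and appears here as TTGCATCA on the printed strand. It was found in 10 of 32 promoters (31.2%) of 26 genes of the list and in 2.33% of all 13116. The RefSeq windows in GRCm38.p6 are chr7:126625421-126625720, minus strand, for Nupr1 and chr19:27216770-27217069, plus strand, for Vldlr.
Nupr1: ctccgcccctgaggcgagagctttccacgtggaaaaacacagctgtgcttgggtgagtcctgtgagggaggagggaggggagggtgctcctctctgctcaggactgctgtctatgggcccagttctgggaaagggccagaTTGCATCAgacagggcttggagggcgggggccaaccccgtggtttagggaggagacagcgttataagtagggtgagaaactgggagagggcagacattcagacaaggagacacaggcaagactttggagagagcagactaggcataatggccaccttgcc
Vldlr: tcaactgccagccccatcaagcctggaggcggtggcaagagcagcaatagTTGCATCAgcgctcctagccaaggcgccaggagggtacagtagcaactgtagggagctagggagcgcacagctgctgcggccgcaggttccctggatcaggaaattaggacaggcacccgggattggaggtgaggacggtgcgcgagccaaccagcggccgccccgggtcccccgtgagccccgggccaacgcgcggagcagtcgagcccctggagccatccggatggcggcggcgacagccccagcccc
The start of Nupr1 opened, from 1.73 ± 0.187 to 3.68 ± 0.524 ATAC CPM (SD, n = 3; log2 fold change 1.09 ± 0.20, edgeR adjusted p = 6.51e-05). Those of Slc7a11 (0.72 ± 0.10) and Asns (0.46 ± 0.09) opened too, that of Vldlr was not called (0.29 ± 0.11), and those of Atf4 (-0.39 ± 0.10) and Ddit3 (-0.28 ± 0.10) closed. Of 25 list members with a start peak 4 opened and 4 closed, against 1.53% and 28.2% of all start peaks.

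Amino acid use was followed through 2 further lists. Of 20 aminoacyl-tRNA synthetases, which load amino acids onto tRNA, 16 rose and 3 fell (median 0.33), and none reached 2-fold; Nars rose from 512, 529 and 513 to 1070, 862 and 868 CPM (0.85 ± 0.06) and Lars rose 1.68-fold. Serine and one-carbon genes split, with 8 of 15 up and 6 down. Aldh1l2, the mitochondrial enzyme that spends formyl-folate, rose 4.78-fold from 9.88, 8.26 and 7.46 to 54.1, 32.6 and 35.1 CPM. Psph (0.94 ± 0.06) and Mthfd2 (0.53 ± 0.06) rose, whereas the cytosolic Shmt1 (-0.50 ± 0.03) and Mat2a (-0.49 ± 0.04) fell. Chaperones did not share the rise: of 31 genes of the unfolded protein response and heat shock 16 fell and 5 rose (3 rose without lactate 3; median -0.15). Hspa8, the abundant cytosolic chaperone, fell 2.04-fold, from 4110, 4240 and 4090 to 1950, 2070 and 2070 CPM (-1.03 ± 0.04, adjusted p = 7.41e-13). Sel1l, which helps remove misfolded proteins from the endoplasmic reticulum, rose 2.06-fold, and the sensor Eif2ak3 fell (-0.71 ± 0.06).

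NRF2 is the factor that answers oxidants and electrophiles, and of the 22 tested genes of its list, which holds NRF2 itself and its partner Keap1 beside targets, 11 rose and 5 fell (median 0.09), against 26.1% and 23.6% of all tested genes. Srxn1, which repairs oxidized peroxiredoxins, rose 10.9-fold from 3.68, 3.03 and 3.86 to 39.3, 36.9 and 38.9 CPM, and the quinone reductase Nqo1 rose 11.1-fold from 0.245, 0.655 and 0.457 to 5.07, 4.85 and 5.67 CPM. Hmox1, which breaks down heme, rose from 8.69, 7.77 and 8.42 to 29.6, 24.1 and 24.9 CPM (1.66 ± 0.10). These genes did not overlap between groups, and the core redox enzymes Gclc (0.50 ± 0.05) and Txnrd1 (0.53 ± 0.04) rose by less. Starts of Srxn1 (0.42 ± 0.09) and Nqo1 (0.81 ± 0.09) opened. The promoter of Srxn1 is printed for its antioxidant response element, searched as TGACNNNGC on either strand, not nested in another motif searched, and found in 7 of 22 promoters (31.8%) of 17 list genes and in 14.2% of all 13116. Among promoters of all genes that rose 2-fold or more the share was 13.3%. The Srxn1 window spans chr2:152105274-152105573 of GRCm38.p6 (RefSeq), plus strand, and the match in capitals reads on the opposite strand.
Srxn1: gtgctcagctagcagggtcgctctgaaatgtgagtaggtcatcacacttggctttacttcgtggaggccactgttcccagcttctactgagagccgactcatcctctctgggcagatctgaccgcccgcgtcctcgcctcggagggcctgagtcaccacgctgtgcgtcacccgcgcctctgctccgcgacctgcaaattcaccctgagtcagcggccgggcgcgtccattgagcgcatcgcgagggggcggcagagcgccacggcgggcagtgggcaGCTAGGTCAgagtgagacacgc

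Among iron and metal genes, the transferrin receptor Tfrc fell from 1350, 1400 and 1390 to 857, 777 and 817 CPM (-0.76 ± 0.05), and Ftl1, the ferritin light chain that stores iron, rose from 287, 288 and 301 to 590, 604 and 602 CPM (1.04 ± 0.04). The groups did not overlap in either gene, and over the iron list 5 of 19 rose and 7 fell, against 26.1% and 23.6% of all tested genes, so the share that rose was that of the background. The metallothionein Mt2, a metal buffer, rose 5.43-fold from 13.6, 14.5 and 12.6 to 74.6, 65.0 and 80.7 CPM, Mt1 rose 2.46-fold and the zinc importer Slc39a10 fell (-0.80 ± 0.04).

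Targets of the aryl hydrocarbon receptor (AHR), a sensor of ring-shaped compounds made by plants, bacteria and combustion, formed a list that was drawn up after their values were seen. Cyp1b1 had no count in any lactate library and 24.2, 20.8 and 25.3 CPM with Oxyrase, at least 820-fold higher against a floor of 3 counts over the group. Cyp1a1, at 0 counts in lactate and 7.56, 7.19 and 7.83 CPM with Oxyrase, was at least 263-fold higher. The repressor Ahrr rose from 0.350, 0.218 and 0.228 to 7.11, 6.09 and 7.47 CPM (4.71 ± 0.28), and Tiparp, which modifies AHR with ADP-ribose, rose 2.31-fold. In NaCl Cyp1b1 had no count and Cyp1a1 a mean of 0.0101 CPM, and with pyruvate both were at 0. Of 11 tested members of the list 9 rose, 8 of them 2-fold or more, against 26.1% and 5.96% of all tested genes. The median was 4.35 when 4 genes without counts in a group are set at their bound. Those 4 passed the filter on low counts only through groups where they had counts, so their direction was fixed in advance. Nqo1 and Il22 are also counted in the NRF2 and cytokine lists. Ahr itself was not called, at 6.27, 5.54 and 5.76 against 4.81, 6.16 and 6.04 CPM. ARNT pairs with both AHR and HIF alpha subunits, and Arnt rose 1.10-fold.

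Most killing genes rose. Of 14 tested genes of the cytotoxic granule and of death ligands 11 rose, 4 of them 2-fold or more, and 2 fell (median 0.59), against 26.1%, 5.96% and 23.6% of all tested genes. Perforin, Prf1, went from 149, 159 and 154 to 442, 431 and 448 CPM (1.52 ± 0.08, adjusted p = 4.26e-11), a 2.86-fold rise with no overlap. Gzmb, the main granzyme of these cells, rose 1.32-fold from 6130, 6640 and 5910 to 8920, 7880 and 7940 CPM. Gzmc rose 5.05-fold from 2.52, 4.15 and 3.83 CPM, though its near-identical neighbours may share reads with it. The granule proteoglycan Srgn (0.63 ± 0.04) and Serpinb9, which shields the killer from granzyme B (0.72 ± 0.05), rose too.

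Of 18 tested cytokine genes 13 rose, 8 of them 2-fold or more, and 3 fell (median 0.82), against 26.1%, 5.96% and 23.6% of all genes. Ifng, the interferon gamma that arms macrophages, rose from 970, 1050 and 980 to 3200, 3520 and 3510 CPM (1.77 ± 0.07, adjusted p = 1.26e-12). Csf2, the growth factor GM-CSF, rose from 26.4, 30.0 and 27.0 to 278, 221 and 276 CPM. Spp1, osteopontin, rose 6.62-fold from 26.1, 24.6 and 27.4 CPM. All 3 were clear of the lactate libraries. Tnf, in contrast, stood at 56.1, 53.5 and 50.3 CPM against 52.3, 53.6 and 62.8 CPM and was not called (0.08 ± 0.07, adjusted p = 0.356). Il2 rose 1.85-fold at 10.1 to 12.6 CPM, and Il22 went from 0 counts to 61, at least 23.9-fold higher. Il22 passed the filter on low counts only through groups where it had counts, so its direction in the count of 13 was fixed in advance. Among 19 chemokine genes and receptors 14 rose and 3 fell (median 0.86): Ccl5 rose 8.63-fold from 1.82, 1.99 and 1.04 to 16.8, 9.56 and 15.1 CPM, whereas the homing receptors Cxcr3 (-1.13 ± 0.11) and Ccr8 (-1.61 ± 0.20) fell.

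Inhibitory receptors did not share 1 direction, with 9 of 21 up and 7 down (median 0.11). Havcr2, which encodes TIM-3, rose from 1.51, 1.77 and 1.14 to 35.9, 35.0 and 39.0 CPM (4.64 ± 0.19), and its start opened (0.48 ± 0.10). Ctla4 fell 2.67-fold from 451, 422 and 391 to 153, 166 and 153 CPM (-1.42 ± 0.06, adjusted p = 2.82e-12), and its start closed from 29.9 ± 1.80 to 17.8 ± 1.00 ATAC CPM (SD, n = 3; -0.75 ± 0.10, edgeR adjusted p = 5.35e-08). These receptors moved in opposite directions with no overlap in either. Pdcd1, which encodes PD-1, was not called at 88.2, 80.6 and 91.1 against 93.7, 91.2 and 90.9 CPM, and Lag3 rose 1.18-fold. The ligands Cd274 (PD-L1) and Pdcd1lg2 (PD-L2) rose 2.00-fold and 2.10-fold.

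Genes of naive and memory cells mostly fell, 20 of 26 against 3 that rose (median -0.29). Tcf7, the factor of memory potential, went from 143, 142 and 140 to 113, 127 and 125 CPM (-0.22 ± 0.04). Klf3 fell 2.00-fold and Dapl1 2.63-fold, while the tissue-retention integrin Itgae rose 3.85-fold. Of 22 fate factors 14 rose and 7 fell. Prdm1, which drives terminal effector fate, rose 4.48-fold from 1.58, 1.28 and 1.29 to 5.78, 6.19 and 6.49 CPM. Zeb2 rose 2.76-fold from 35.5, 34.7 and 33.6 CPM and Id2 2.26-fold. Tbx21, which encodes T-bet, fell slightly, from 80.3, 79.8 and 76.2 to 73.6, 61.5 and 72.6 CPM (-0.19 ± 0.06); without Oxyrase 2 it was -0.11 and not called.

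Activation genes were mixed, with 17 of 35 up and 9 down (median 0.09). The immediate-early factor Egr1 rose from 109, 108 and 106 to 207, 212 and 211 CPM (0.97 ± 0.05), and the costimulatory receptor Tnfrsf9 rose 1.53-fold. Icos, another costimulatory receptor, fell from 293, 277 and 282 to 92.0, 108 and 102 CPM (-1.49 ± 0.05), and Myc from 553, 565 and 522 to 353, 333 and 329 CPM (-0.69 ± 0.04). Il2ra, the high-affinity interleukin 2 receptor chain, was not called, at 1380, 1390 and 1360 against 1340, 1420 and 1390 CPM. Among 14 genes of the STAT5 response downstream of that receptor 3 rose and 4 fell (2 fell without lactate 1); Pim2 fell 3.21-fold from 252, 241 and 236 to 68.6, 81.0 and 77.2 CPM and Socs2 fell 2.09-fold. NF-kB and innate genes had 15 of 25 up and 5 down (median 0.40). Il6 rose from at most 0.175 CPM to 2.15, 2.58 and 2.67 CPM, and Tlr1 fell (-1.20 ± 0.11). Il6 passed the filter on low counts through groups where it was higher, so its direction was partly fixed in advance.

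Interferon-stimulated genes fell more often than they rose: 21 of 37 fell and 4 rose (median -0.45). Igtp, an interferon-induced GTPase, went from 262, 250 and 251 to 119, 130 and 125 CPM (-1.03 ± 0.05), and Ifit1 fell 5.18-fold from 1.96, 1.75 and 1.78 CPM. Ifih1, the RNA sensor MDA5, was among the risers, from 10.6, 12.2 and 11.3 to 29.3, 19.5 and 21.1 CPM (1.02 ± 0.12).

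Genes of growth and division changed mostly by less than 2-fold. Of 38 DNA replication genes 24 fell and 4 rose (median -0.19; 2 rose when any 1 of the 6 libraries was left out), none by 2-fold: the ribonucleotide reductase Rrm1 fell from 488, 493 and 479 to 321, 337 and 318 CPM (-0.58 ± 0.04) and the helicase subunit Mcm3 by 0.46 ± 0.03 on the log2 scale. Mitosis genes, at 10 up and 9 down of 32, lay near the 26.1% and 23.6% of all tested genes, and Mki67, the usual mark of cycling cells, was not called at 1260, 1230 and 1080 against 1240, 1160 and 1160 CPM (0.00 ± 0.06). Aurkb fell (-0.49 ± 0.04) and Ccnb2 rose (0.35 ± 0.04). Of 26 cell cycle inhibitors and p53 targets 16 rose and 4 fell; Cdkn1a, which encodes p21, rose 1.79-fold from 185, 179 and 177 to 304, 308 and 355 CPM, and Plk2 rose 2.04-fold. Ribosome biogenesis and other MYC targets fell in 20 of 38 cases and rose in 4 (2 rose without Oxyrase 3; median -0.12), for example Ppan (-0.54 ± 0.04) and Ncl (-0.51 ± 0.06). Of 74 cytosolic ribosomal protein genes 51 were not called. In the BCL2 family 5 of 14 rose and 4 fell, against 26.1% and 23.6% of all tested genes. Death-promoting members went both ways. Bid fell 1.69-fold and Bcl2l11, which encodes BIM, fell from 59.3, 56.3 and 60.5 to 43.9, 42.1 and 43.4 CPM (-0.44 ± 0.05). Bax fell too (-0.28 ± 0.06), while Pmaip1 (0.45 ± 0.05), Bbc3 (0.35 ± 0.09) and Bmf (0.40 ± 0.13) rose.

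Enzymes that need oxygen to modify chromatin showed 13 of 25 up and 4 down (median 0.11), against 26.1% and 23.6% of all tested genes, and none moved by 2-fold. The demethylases Kdm3a (0.52 ± 0.05), Kdm4b (0.33 ± 0.06) and Kdm5b (0.57 ± 0.05) rose, the first 2 also standing in the HIF target list. Kdm4a went from 88.6, 85.9 and 86.9 to 174, 144 and 153 CPM (0.85 ± 0.05) and Kdm6b from 85.1, 75.8 and 74.0 to 133, 150 and 149 CPM (0.88 ± 0.07). Among 26 enzymes that add or remove histone acetyl groups 10 rose and 5 fell, with Sirt6 at 1.52-fold up and Kat2a down (-0.37 ± 0.04). Of 33 lysosome and autophagy genes 12 rose and 8 fell, and Sqstm1, the p62 cargo receptor, rose 2.03-fold. The shares of the acetylation and lysosome lists were not far from those of all tested genes.

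The ATAC libraries of the same treatments were read at gene starts, taking for each gene the peak within 1 kb of its RefSeq start, which 9619 of the tested genes had. At these peaks closing outweighed opening: 147 opened (1.53%) and 2708 closed (28.2%), with a median log2 fold change of -0.15. Over all 75802 peaks 11843 opened and 9696 closed. This balance over all peaks moved with the processing. Upper-quartile factors gave 11082 opened and 10814 closed, and the 6 libraries alone gave 13062 and 8826. Where transcripts rose 2-fold or more, 67 of 495 starts opened (13.5%) and 45 closed (9.09%). Where transcripts rose by less, 0.836% opened and 24.1% closed, and where they were not called, 1.18% and 28.0%. Where transcripts fell 2-fold or more, 1 of 154 opened (0.649%) and 51 closed (33.1%). Across the 9619 genes, which are not independent replicates and share their libraries, the 2 log2 fold changes correlated at 0.26 (Pearson) and 0.16 (Spearman). Most of the 495 transcripts that rose 2-fold or more had no called change at their own start.

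**Figure D4:**
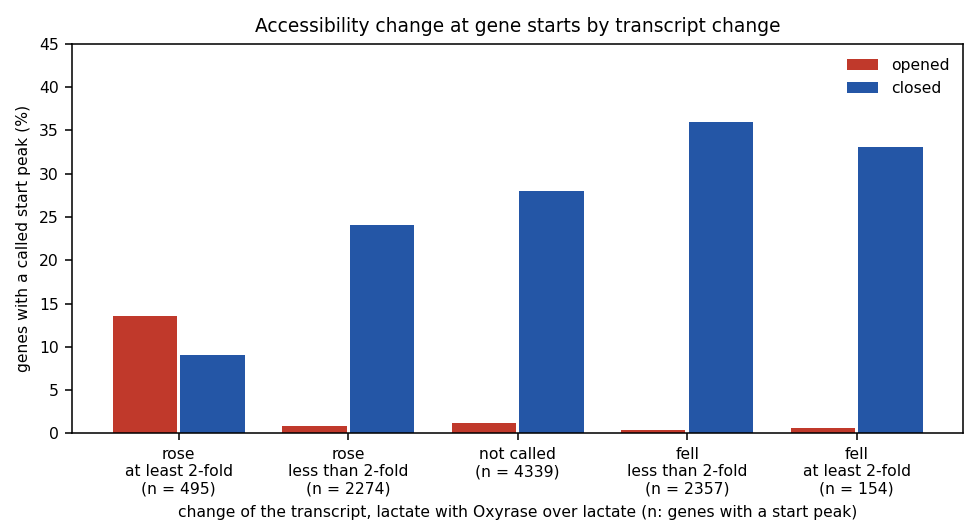
Percentage of genes whose ATAC peak within 1 kb of the start opened (red) or closed (blue) with Oxyrase, by the change of the transcript; n is the number of genes with such a peak. Opened starts reach 13.5% among transcripts that rose at least 2-fold and stay at 1.18% or less in the other classes.

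The change with Oxyrase was set beside that of pyruvate over NaCl, a comparison that shares no library with it and in which 2313 genes were called (15.7%). Of the 1387 genes that rose with pyruvate 924 also rose with Oxyrase (66.6%), which is 24.0% of the genes that Oxyrase raised, and 541 genes fell in both (58.4% and 15.5%). In 216 genes the directions were opposite. The 2 changes correlated at 0.34 (Pearson) over 14749 genes, which are not independent replicates. The difference between them, tested in the same edgeR model, was called for 4279 genes (29.0%). Cholesterol and ATF4 genes differed: Hmgcs1 had 325 CPM in NaCl and 329 CPM with pyruvate on average (0.02 with pyruvate, difference -1.71 ± 0.09, adjusted p = 4.97e-10), and Ddit3 had 19.4 and 17.2 CPM (-0.17, difference 1.92 ± 0.12, adjusted p = 5.13e-09). Il23a likewise changed by 0.23 with pyruvate, a difference that was called (adjusted p = 1.18e-10).

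Havcr2, Serpinb9, Klrc1, Srxn1 and Ifng rose in both comparisons. Havcr2 went from a mean of 1.34 CPM in NaCl to 18.8 CPM with pyruvate (3.81), and the difference from the Oxyrase change did not pass the test (0.84 ± 0.33, adjusted p = 0.0675). Serpinb9 rose by 0.70 with pyruvate and 0.72 with Oxyrase (difference 0.02 ± 0.07, adjusted p = 0.864), and the lectin receptor Klrc1, whose relative Klrc2 may share reads with it, by 1.24 and 1.14 (difference -0.11 ± 0.06, adjusted p = 0.179). Srxn1 rose in both but by 1.01 ± 0.20 more on the log2 scale with Oxyrase (adjusted p = 9.87e-04), and Ifng by 1.09 ± 0.09 more. Bcl2l11 went opposite ways, up 0.73 with pyruvate and down 0.44 with Oxyrase. Of 11 tested NK-type lectin receptors 6 rose with Oxyrase and none fell; Klrd1 and Klrk1 rose by 0.25 and 0.26, less than the 0.64 and 0.54 with pyruvate (adjusted p of the difference 7.19e-04 and 0.0168).

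**Figure D5:**
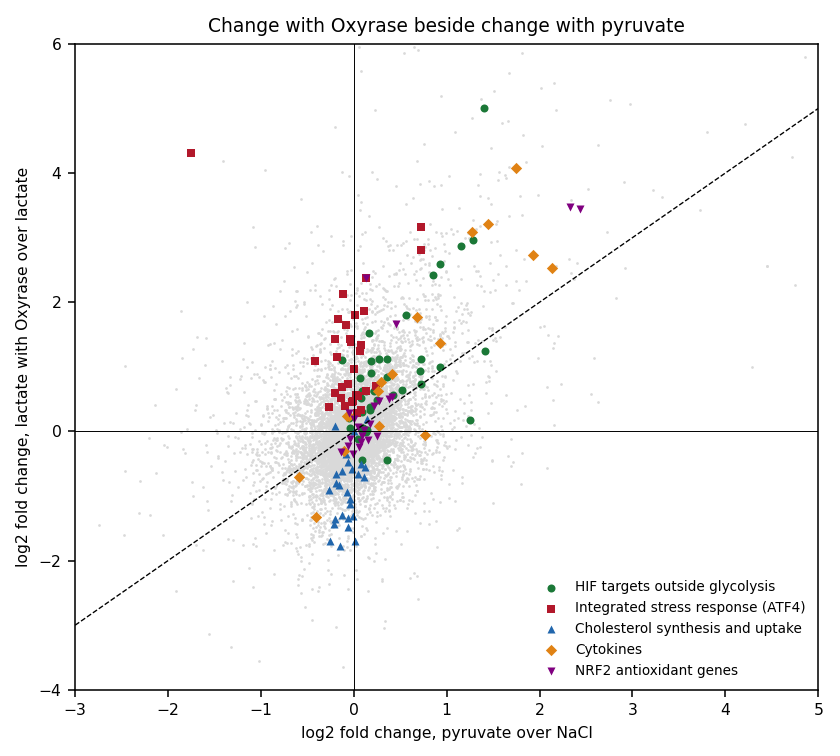
Log2 fold change of lactate with Oxyrase over lactate (vertical) against that of pyruvate over NaCl (horizontal) for all tested genes in grey and 5 gene lists in colour; the dashed line marks equal change, and 64 genes lie outside the axes. The ATF4 genes and the cholesterol genes mostly spread along the vertical axis near 0 for pyruvate (Gdf15, with few counts, lies far left), and several cytokine and NRF2 genes are high on both axes.

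Lineage markers checked the label of the cells. CD8 T cell markers were abundant in every library, with the summed level of 17 genes at 5340 to 5400 CPM in lactate and 4450 to 4600 CPM with Oxyrase. Of these 17 genes 11 fell and 3 rose (median -0.28): Cd8a went from 632, 664 and 679 to 399, 404 and 415 CPM (-0.70 ± 0.03), Cd8b1 fell 1.64-fold, Thy1 1.34-fold and Cd2 2.43-fold, while Cd3e was not called at 164 to 186 against 161 to 184 CPM. In bulk samples fewer cells of a type and less RNA per cell cannot be told apart. Cd4, the defining helper marker, was at 0.304 to 0.545 CPM in lactate and 0.334 to 0.378 CPM with Oxyrase, whereas Zbtb7b, the factor of helper lineage choice, rose 2.69-fold and Foxp3 fell 4.70-fold from 4.06, 3.41 and 4.47 CPM. The 5 helper markers summed to 35.3 to 36.7 CPM in lactate and 50.9 to 57.4 CPM with Oxyrase. Only Zbtb7b among them rose (15.6 to 16.5 CPM against 36.9 to 47.4 CPM), while Foxp3 and Ikzf2 fell. The part of helper cells in the results was not tested.

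Among markers of B cells, whose 10 genes summed to 193 to 201 CPM in lactate and 67.6 to 78.5 CPM with Oxyrase, nearly all signal was Ighm (194, 189 and 186 against 63.3, 73.4 and 70.7 CPM), with Ms4a1 at or below 0.381 CPM in every library. Of 18 myeloid and dendritic markers, which summed to 30.6 to 31.3 CPM in lactate and 64.9 to 73.9 CPM with Oxyrase, 6 were tested and 5 rose, against 26.1% of all tested genes. Those with the most signal were the antigen-presentation genes Cd74 (22.1, 23.5 and 23.6 against 43.6, 47.7 and 53.1 CPM) and H2-Ab1 (2.67-fold higher), with Cd68 3.30-fold and Itgax 10.8-fold higher at under 6 CPM. Itgax and Xcr1, at or below 0.136 CPM in lactate, passed the filter on low counts through groups where they were higher. The count of 5 is therefore partly fixed in advance. The defining myeloid genes Lyz2, Csf1r, Itgam, Adgre1 and Cd14 stayed at or below 0.275 CPM in all 6 libraries, and S100a8, S100a9 and Mpo had no count. Natural killer markers summed to 28.5 to 33.8 CPM and 38.9 to 44.5 CPM, with Ncr1 at 0 throughout. Klri2 alone was called higher (5.46 to 6.76 CPM against 20.3 to 23.7 CPM). Eomes, most of the lactate sum, fell (21.7 to 26.5 CPM against 18 to 20 CPM). Markers of red cells and stroma summed to 25.4 to 28.3 CPM and 13.9 to 17.3 CPM, nearly all Pecam1. The share of any of these cells in the results was not tested.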

How the data were processed

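RNA was captured by poly(A) and made into libraries with a TruSeq kit, per the labels' protocols. The deposited RNA values are expected counts per gene from RSEM; RSEM 1.2.12 and Bowtie2 2.2.0 with build mm10 are named in the submitters' processing notes. Of the values above 0, 99.24% were whole within 1e-09; in 460 genes some value above 1 was fractional, and 448 of these genes were at 0 throughout 1 replicate number. The deposited ATAC values are read counts in 75802 peaks, per the file headers.

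Counts were rounded, filtered with filterByExpr and scaled by TMM, and edgeR 4.0.16 fitted a quasi-likelihood model to the 12 libraries of each assay with no replicate term (residual degrees of freedom 8). Every tested feature entered the Benjamini-Hochberg adjustment, and calls were made under 0.05. An SE was derived from each log2 fold change and its F statistic. Symbols matched 55141 of 55401 identifiers.

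Named genes were the 10 highest and 10 lowest changes among called genes that reached a mean log2 CPM of 3 with no overlap between groups, up to 6 members of each list with at least 3 called, and a set of genes named singly. The members and lists were chosen with earlier results of these data known, and the AHR and GIMAP lists after their values here were seen. Intervals and floors cover counting error only. Alternatives changed the scaling, filter, tool (DESeq2 1.42.0), threshold, samples and replicate term, and left out each library in turn. R 4.3.3, Python 3.11.15 and matplotlib 3.10.9 were used. Some genes that the naming rule selects are not reported here.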

Additional observations from a re-analysis of the deposited data

How the results depend on the processing

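The count of called genes, 7323, was 7324 with RLE factors, 7301 with upper-quartile factors, 6953 with DESeq2, 7459 without a filter on low counts, 6937 with a minimum of 1 CPM in 3 libraries and 6980 with the 6 libraries alone; leaving out each library in turn gave 6545 to 6845. Fewer passed stricter rules: 5587 at an adjusted p under 0.01, 3038 against a fold of 1.2 and 1206 at 2-fold or more, the last chosen after seeing the data. With a replicate block 6740 genes were called, 6733 of them shared with the 7323. The labels do not say that a number marks a shared source. Deviations from group means correlated at -0.17 to -0.10 in same-numbered RNA libraries (-0.04 to 0.15 in others) and at -0.15 to 0.06 in ATAC libraries (-0.20 to 0.17 in others); a correction for replicate number would itself lower the RNA values, so these cannot show whether RNA replicates were paired. The 21539 called peaks became 12997 at an adjusted p under 0.01, 8577 against a fold of 1.2, 23712 with a replicate block, 23740 without NaCl 3, which lay beside lactate 1 in principal components (added after seeing the data), and 16200 to 19031 with each library left out in turn. A start window of 2.5 kb gave 14.2% opened and 9.50% closed among transcripts that rose at least 2-fold. Of 296 named genes 264 kept their direction and call with other factors, DESeq2, the 6 libraries alone, a replicate block and each library left out; stricter thresholds and filters were not run for single genes. A change of sign occurred in 7, none of them called with all libraries: Mki67 was at 0.00 with upper-quartile factors, the 6 libraries alone or a replicate block, and with 1 library left out Mki67 ranged from -0.07 to 0.04, Egln1 from -0.04 to 0.03, Ahr from -0.10 to 0.06, Pfkfb3 from -0.04 to 0.04, Irf4 from -0.02 to 0.05, Il2ra from -0.01 to 0.03 and Tnf from -0.01 to 0.13; the cause was not tested. Genes under about 0.1 CPM, the level of 3 counts, could not be followed at this depth.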

Other observations

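The GIMAP genes, a cluster of GTPases that support lymphocyte survival, fell with Oxyrase. The list was drawn up after their values were seen. Of 8 tested members 7 fell, against 23.6% of all tested genes (median -0.62). Gimap7 fell 2.88-fold from 55.6, 53.4 and 51.1 to 18.3, 19.8 and 17.4 CPM (-1.53 ± 0.07), Gimap6 from 228, 230 and 219 to 118, 119 and 110 CPM (-0.97 ± 0.05) and Gimap4 from 295, 310 and 305 to 173, 182 and 162 CPM (-0.82 ± 0.05). No lactate library of these 3 genes overlapped an Oxyrase library. Gimap5 was not called, at 58.2, 59.5 and 58.5 against 56.9, 55.9 and 57.8 CPM. All 8 had a start peak, and 6 of these closed, against 28.2% of all start peaks, among them that of Gimap4 (-0.67 ± 0.16).

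Further transcripts, picked after their values were seen, were scarce in lactate and higher with Oxyrase. Asb2, a subunit of a ubiquitin ligase, stood at 0.175, 0.327 and 0.228 CPM in lactate and at 22.4, 14.7 and 29.3 CPM with Oxyrase (6.46 ± 0.31, edgeR adjusted p = 3.41e-11), with means of 0.359 CPM in NaCl and 0.460 CPM with pyruvate. Tph1, which starts serotonin synthesis, had 0 counts in lactate and 90 with Oxyrase, at least 35.3-fold higher. The chemokine receptor Ccr1 had 0 and 105 counts, at least 41.1-fold higher. Penk, which encodes the enkephalin precursor, rose 7.17-fold from 15.6, 16.5 and 14.2 to 103, 107 and 122 CPM; it also stood higher with pyruvate, at a mean of 51.9 CPM against 28.2 CPM in NaCl. In all, 24 called genes had no count in any lactate library and 7 had none in any Oxyrase library. Such genes, like Tph1 and Ccr1, passed the filter on low counts only through groups where they had counts. Their direction was therefore fixed in advance.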
